A study of Mus musculus with 12 samples.

Results

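The interaction of injury and stimulation is the difference between 2 effects: the log2 fold change that electrical stimulation made in injured mice minus the log2 fold change it made in uninjured mice. A value of 0 means that injury and stimulation multiplied each other's effects, a negative value that a gene was lower after both than the product of the separate fold changes, and a positive value that it was higher. All 12 libraries of the series enter it, 3 in each of 4 groups. It was tested on 13053 counting intervals, of which 4769 could be named as genes.

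The tissue was the trigeminal ganglion, which holds the cell bodies of the sensory neurons that innervate the cornea. All libraries came from female C57BL/6J mice of 8 weeks with no transgene. The groups were non-treated control, keratectomy injury, ES-treated keratectomy injury and ES-treated no injury, where ES stands for electrical stimulation. Injured mice lost the corneal epithelium and the superficial stroma within a circle of 1.5 mm in one eye chosen at random, and ganglia were taken 2 weeks later. Stimulation passed 300 µA at 20 Hz between the skin of the orbit and the abdomen for 4 min a day over 14 days. Stimulated mice were also under isoflurane, and injured mice also received ketamine, xylazine and the opioid analgesic Ethiqa XR, so these exposures cannot be told apart from the treatments. Sham electrodes are described, but no library is labelled as a sham. Neither the number of mice nor the side behind a library is labelled. The p-values therefore describe variation among libraries, which may be technical. The title of the series names diabetic neuropathy and KCNN channels, while no label mentions diabetes.

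A sensory ganglion contains neurons, the satellite glia that wrap their cell bodies, Schwann cells that myelinate their axons, fibroblasts of the coverings, vessels and resident macrophages. Oligodendrocytes and astrocytes are the glia of the central nervous system, which meets the peripheral nerve along the root of the ganglion. KCNN genes encode calcium-activated potassium channels, which damp firing after a spike. In bulk RNA, fewer cells of a type and less RNA per cell cannot be told apart.

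Each named gene was measured only through a counting interval that covered a stretch of its exons, and that stretch was often short. The whole count of the interval was used, so reads on any bases of it outside known exons are included. The stretches of 4 genes with negative interactions (the myelin genes Mog and Cldn11, the astrocyte gene Agt and the pacemaker channel gene Hcn2) and of 1 gene with a positive one (the satellite glial cadherin gene Cdh19) are shown because the results below rest on them and because their base composition differs. Coordinates are GRCm38. Each sequence is the coding strand read 5′ to 3′. Capitals mark the exon bases under the interval, here called the counted bases, and lower case marks neighbouring exon bases. Mog was counted over 114 bases at chr17:37017488-37017601 on the minus strand, Cldn11 over 165 bases at chr3:31153914-31154078 on the plus strand and Agt over 150 bases at chr8:124556972-124557121 on the minus strand. Hcn2 was counted over 251 bases at chr10:79724546-79724796 on the plus strand and Cdh19 over 252 bases at chr1:110893185-110893436 on the minus strand.
Mog: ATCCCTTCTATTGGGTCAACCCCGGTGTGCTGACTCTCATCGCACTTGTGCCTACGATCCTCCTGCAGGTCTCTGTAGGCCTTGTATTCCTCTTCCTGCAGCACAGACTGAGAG
Cldn11: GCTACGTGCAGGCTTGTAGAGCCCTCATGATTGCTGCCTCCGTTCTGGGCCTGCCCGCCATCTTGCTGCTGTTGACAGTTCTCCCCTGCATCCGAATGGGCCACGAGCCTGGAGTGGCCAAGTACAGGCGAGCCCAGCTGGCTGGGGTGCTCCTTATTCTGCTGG
Agt: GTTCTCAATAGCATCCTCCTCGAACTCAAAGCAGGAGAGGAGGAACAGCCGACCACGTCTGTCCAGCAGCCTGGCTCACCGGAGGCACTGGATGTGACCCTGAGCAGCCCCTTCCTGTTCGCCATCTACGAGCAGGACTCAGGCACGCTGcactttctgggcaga
Hcn2: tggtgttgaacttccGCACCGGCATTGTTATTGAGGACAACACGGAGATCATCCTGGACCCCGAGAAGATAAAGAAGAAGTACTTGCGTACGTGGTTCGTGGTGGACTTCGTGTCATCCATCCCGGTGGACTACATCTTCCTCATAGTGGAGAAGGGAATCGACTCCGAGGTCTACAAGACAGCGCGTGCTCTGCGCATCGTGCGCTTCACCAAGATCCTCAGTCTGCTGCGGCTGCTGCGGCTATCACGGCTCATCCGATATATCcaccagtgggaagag
Cdh19: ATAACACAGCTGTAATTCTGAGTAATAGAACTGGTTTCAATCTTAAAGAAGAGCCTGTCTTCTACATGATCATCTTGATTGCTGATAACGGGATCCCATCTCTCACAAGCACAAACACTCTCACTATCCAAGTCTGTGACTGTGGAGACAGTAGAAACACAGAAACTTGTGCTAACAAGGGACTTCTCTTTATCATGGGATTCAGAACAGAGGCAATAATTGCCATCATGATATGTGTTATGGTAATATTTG
G and C made up 54.4% of the counted bases of Mog, 61.8% of Cldn11, 60% of Agt, 54.2% of Hcn2 and 38.9% of Cdh19, against a median of 49.1% over all named genes.

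Each library held between 7952798 and 10751547 counted reads. The second library of stimulated injured mice stood apart from the other 2 of its group, with a chi-square per degree of freedom of 72.3 and 48.2 against them, where other pairs within a group gave 8.30 to 33.0. Sensory neuron genes were abundant in all libraries, as Avil, an actin-binding protein of these neurons, showed with 709 to 1471 CPM. Levels are given throughout in CPM, read counts divided by the size of the library, which was scaled by edgeR's trimmed mean of M values (TMM).

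The effect of stimulation differed between injured and uninjured mice for a large set of genes. Of the 13053 intervals, 2507 (19.2%) passed edgeR's quasi-likelihood test at a Benjamini-Hochberg adjusted p under 0.05, 896 of them (6.86%) with a positive and 1611 (12.3%) with a negative interaction. Among named genes 971 of 4769 (20.4%) passed, 380 (7.97%) positive and 591 (12.4%) negative. Each single exposure moved many intervals: 3896 (29.8%) for stimulation of uninjured mice and 4046 (31%) for injury without stimulation. Once the other exposure was present the counts were 201 (1.54%) for stimulation of injured mice and 531 (4.07%) for injury of stimulated mice.

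The 591 negative genes had a median level 0.87 higher (log2) after injury and 0.87 higher after stimulation alone, and a median fold change of -0.20 (log2) when stimulation was added to injury. In 451 of them stimulation had a positive fold change without injury and a negative one with it, in 132 it was positive in both and in 8 negative in both. The 380 positive genes showed the opposite arrangement, with a median difference of -0.67 after injury, -0.93 after stimulation alone and 0.17 when stimulation was added to injury. In 291 of them stimulation had a negative fold change without injury and a positive one with it. Among all 4769 named genes stimulation was positive without injury and negative with it for 1296, and the reverse for 1212. Genes called by the sign of this difference lean towards such effects by selection, so these signs and medians are no separate result. After both exposures the mean level lay within the range of the 3 control libraries for 87 of the 591 negative and 61 of the 380 positive genes, against 1542 of all 4769 named genes. For 36 of the negative genes every library of both single exposures was above every control and every library of both exposures combined, which held for 39 (0.818%) of all named genes. The reverse arrangement held for 27 of the positive genes, and for 32 (0.671%) of all named genes. Signs computed on linear CPM differed from those on the log scale for 0 of the 971 genes.

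**Figure D1:**
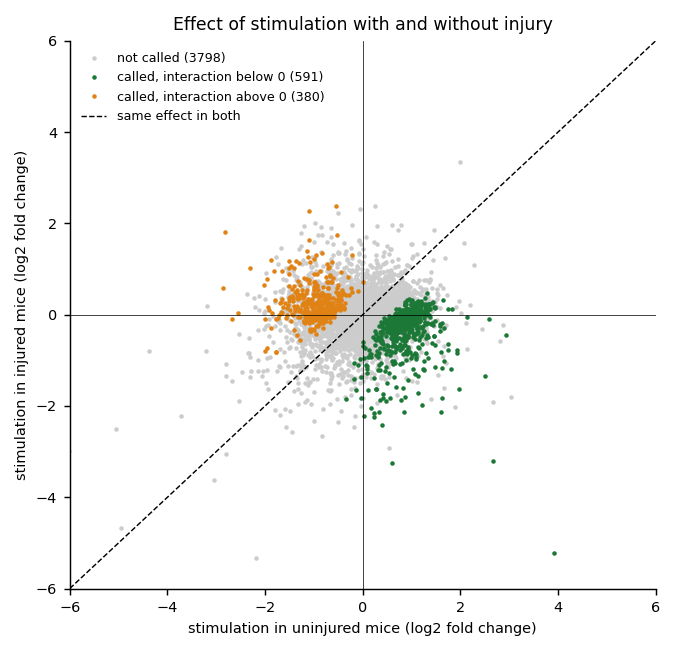
Each point is 1 of the 4769 named genes tested. The horizontal axis is the log2 fold change of stimulation in uninjured mice, the vertical axis that in injured mice, and the dashed line marks equal effects. The 591 genes called with a negative interaction lie below the line and mostly to the right of 0, and the 380 with a positive one above it and mostly to the left. A total of 2 genes lie outside the axes.

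The counts depended on single libraries and on scaling. Without the second library of stimulated injured mice 2107 intervals were called, 1027 positive and 1080 negative. Leaving out another library gave 1126 (the second stimulated uninjured), 1245 (the first stimulated uninjured), 1296 (the third control), 1446 (the third stimulated injured), 1451 (the second injured) and 1509 (the first control), and 1740 to 3407 for the rest. Positive calls were 35.7% of all calls with TMM, 47.9% with relative log expression scaling and 62.1% with upper quartile scaling, which moved the median interaction of all intervals from -0.06 to 0.16.

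The interaction also followed the base composition of the counted stretch. Across 4767 named genes its rank correlation with GC content was -0.441, and the median GC content was 55.3% in negative, 41.4% in positive and 49.1% in all named genes. Levels in single libraries, relative to the mean of all libraries, showed rank correlations with GC content of -0.396 to -0.331 in controls, -0.0029 to 0.0893 after injury, 0.263 to 0.430 after stimulation alone and -0.0977 to 0.058 after both. When a smooth trend on GC content and length was removed from each library, the rank correlation was -0.0399 and 687 intervals were called, 354 positive and 333 negative, of which 590 were among the 2507. Of the named genes 265 of 4769 were called with the trend removed, against 971 as fitted, and 228 in both fits. List counts without the GC trend below are to be read against these 265, because the shares printed beside the lists are those as fitted. Below, the value with this trend removed (the value without the GC trend) is given beside every gene whose call was lost with it. Genes called below with no such value were also called with the trend removed.

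**Figure D2:**
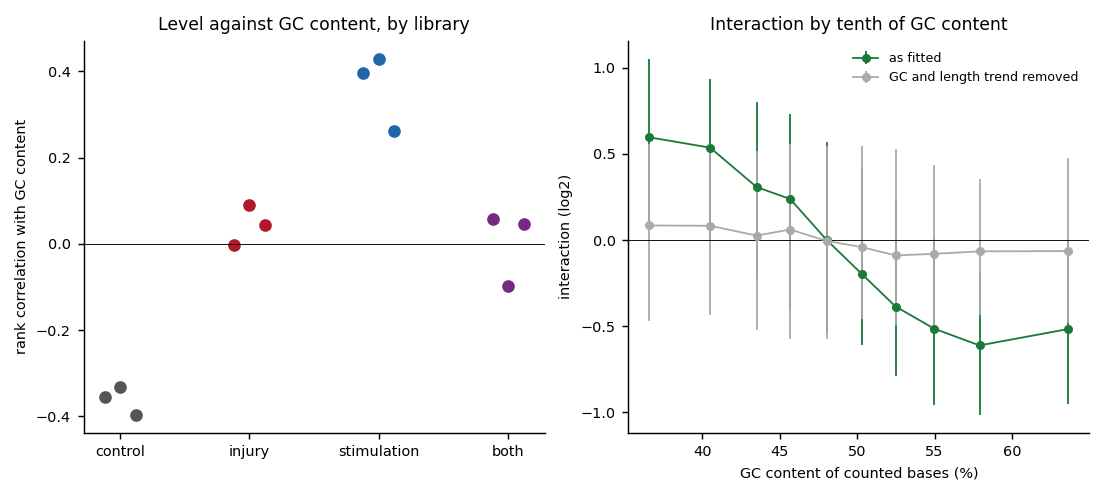
Left, the rank correlation across named genes between level relative to the other libraries and GC content, with 1 point per library. Right, the median interaction (log2) in 10 equal bins of named genes ordered by GC content, with bars for the quartiles. As fitted it went from 0.60 at a median GC content of 36.6% to -0.61 at 57.9%, and with the trend removed from 0.08 to -0.07.

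Markers of the glia of the central nervous system had the lowest medians of the 23 lists with at least 3 members measured. The lists were chosen with earlier results of these data known, so this ranking is a description and no independent support. Only 6 of 15 listed oligodendrocyte markers and 5 of 12 astrocyte markers were measured. Of the 6 oligodendrocyte markers measured, 4 had negative interactions and 0 positive, and all 5 astrocyte markers had negative ones. Among all named genes 12.4% were negative and 7.97% positive. The medians of these 2 lists were -2.35 and -2.85, against -0.07 over all named genes. Without the GC trend 5 of 6 and 5 of 5 were called, with medians of -1.93 and -2.98. Mog, the myelin oligodendrocyte glycoprotein, stood at 36.5, 25.3 and 24.2 CPM in controls, 149, 77.2 and 133 after injury, 34.7, 43.7 and 22.7 after stimulation alone and 16.4, 40 and 19.5 after both. The 3 libraries of injury alone were above all others, and the other 3 groups overlapped. Its interaction was -2.46 ± 0.46 (adjusted p = 0.0035) on the log2 scale, and -2.19 (adjusted p = 0.01) without the GC trend. The level after both exposures was 0.181 times the product of the separate fold changes.

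Gpr37, a receptor of oligodendrocytes, had 161, 96.7 and 95.5 CPM in controls, 519, 279 and 506 after injury, 192, 266 and 152 after stimulation alone and 81.4, 170.4 and 103 after both. Injury alone was highest without overlap, and its interaction was -2.66 ± 0.43 (adjusted p = 0.0018). Cldn11, the claudin of oligodendrocyte myelin, had an interaction of -2.46 ± 0.48 (adjusted p = 0.0045), and Enpp6, a choline phosphodiesterase of new oligodendrocytes, one of -2.24 ± 0.54 (adjusted p = 0.011).

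Among astrocyte markers, Agt encodes angiotensinogen and had 23.1, 20.1 and 11.9 CPM in controls, 104, 74.4 and 98.4 after injury, 33.9, 57.6 and 29.4 after stimulation alone and 30.7, 31 and 22 after both. Injury alone was highest in every library, and all libraries of stimulation alone were above all controls. Its interaction was -2.85 ± 0.37 (adjusted p = 0.00085), and -2.36 (adjusted p = 0.0032) without the GC trend. Slc6a11, a GABA transporter of astrocytes, had 3.1, 0.569 and 0.703 CPM in controls, 5.1, 3.82 and 5.14 after injury, 4.29, 10.5 and 2.63 after stimulation alone and 1.14, 1.93 and 1.42 after both, and an interaction of -3.59 ± 0.83 (adjusted p = 0.0087). Dao, D-amino acid oxidase, had an interaction of -3.46 ± 0.74 (adjusted p = 0.0066), which was -3.43 with an adjusted p of 0.059 without the second library of stimulated injured mice. Aldh1l1, a folate enzyme used as a general astrocyte marker, had one of -1.89 ± 0.41 (adjusted p = 0.0067).

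The summed level of the 6 oligodendrocyte markers was 456 to 638 CPM in controls, 985 to 1515 after injury, 525 to 714 after stimulation alone and 404 to 645 after both. For the 5 astrocyte markers the sums were 21.3 to 38.5, 107 to 154, 44.3 to 107 and 32.8 to 49.2 CPM. Injury libraries were clearly apart from the other groups for oligodendrocyte markers, while for astrocyte markers the lowest of them was level with the second library of stimulation alone. No member of either list was at 0 in any library. Whether libraries differed in the amount of nerve root was not tested.

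Myelin genes shared with Schwann cells moved in the same direction. Of 6 myelinating Schwann cell markers 3 had negative interactions and 0 positive (median -1.40), against 12.4% and 7.97% of all named genes. Without the GC trend 4 were negative. Mag, the myelin-associated glycoprotein found in central and peripheral myelin, had 106, 70.4 and 59.5 CPM in controls, 371, 236 and 366 after injury, 159.8, 170.4 and 101 after stimulation alone and 78.7, 128 and 72.1 after both. Every library of injury alone was above every other library. Its interaction was -2.67 ± 0.37 (adjusted p = 0.00087), and -2.59 (adjusted p = 0.0029) without the GC trend. Fa2h, the fatty acid hydroxylase for myelin lipids, had 87.7, 96 and 77.3 CPM in controls, 344, 320.3 and 311 after injury, 168, 145 and 141 after stimulation alone and 214, 116 and 141 after both, and an interaction of -1.85 ± 0.26 (adjusted p = 0.00087). Controls were lowest and injury highest for Fa2h, with both stimulated groups between them. Cnp, a phosphodiesterase of myelin sheaths, had an interaction of -1.71 ± 0.27 (adjusted p = 0.0016). For Prx, periaxin, which only myelinating Schwann cells use among these glia, the value was -1.08 ± 0.39 (adjusted p = 0.061), which did not pass the test.

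**Figure D3:**
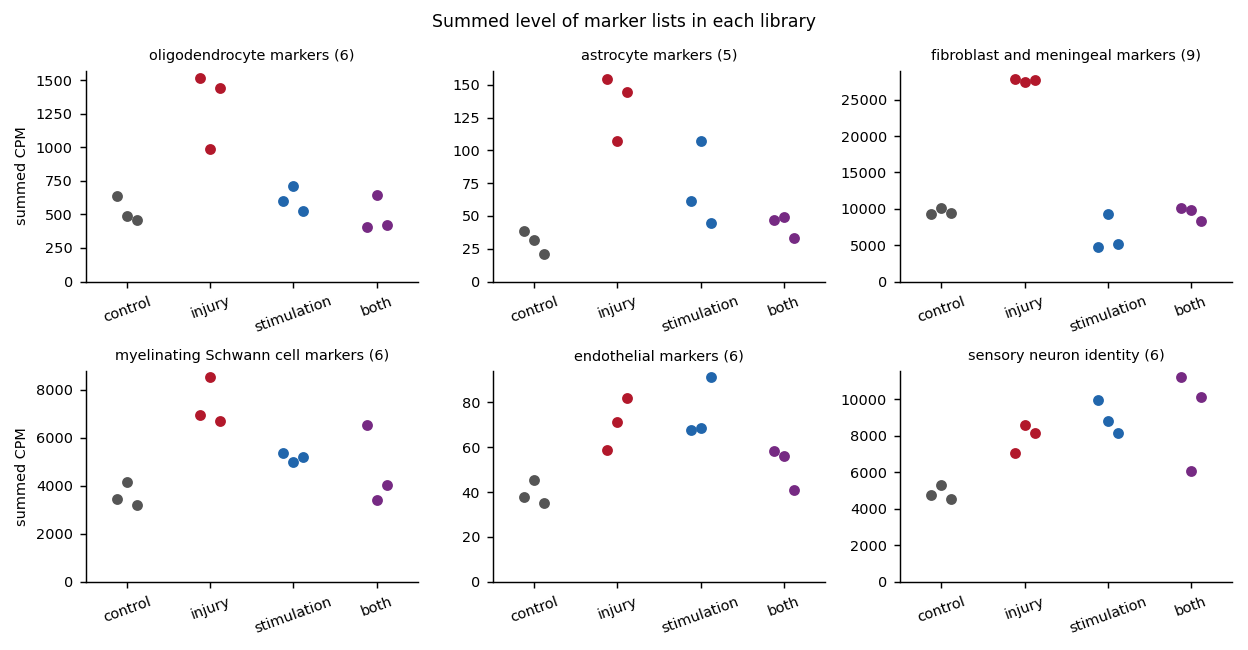
Summed CPM of the measured members of 6 marker lists (number in brackets), with 1 point per library in the order of replicate numbers and an axis from 0. Injury alone was highest for oligodendrocyte, fibroblast and meningeal, and myelinating Schwann cell markers, and level with 1 library of stimulation alone at its lowest point for astrocyte markers, and sensory neuron genes were lowest in controls.

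Satellite glial genes divided. Of 6 measured, 2 had positive and 2 negative interactions (median 0.66), against 7.97% and 12.4% of all named genes. Cdh19, a cadherin of satellite and Schwann lineage cells, had 53.7, 57 and 54.3 CPM in controls, 26.4, 24.9 and 24.7 after injury, 17.3, 12.7 and 24.1 after stimulation alone and 21.7, 42.8 and 25.5 after both. Controls were highest in every library, and the second library after both exposures was above the other libraries of the 3 exposed groups. Its interaction was 1.85 ± 0.34 (adjusted p = 0.0029), and 1.29 (adjusted p = 0.013) without the GC trend. Ednrb, the endothelin B receptor, had 76.9, 62.9 and 86.7 CPM in controls, 58.3, 57.6 and 56.5 after injury, 39.3, 41.6 and 41 after stimulation alone and 64.5, 56.4 and 68.9 after both. Stimulation alone was lowest without overlap, and the interaction was 1.03 ± 0.20 (adjusted p = 0.004). Kcnj10, the inward rectifier that lets satellite glia and astrocytes buffer potassium, had 92, 63.2 and 51.3 CPM in controls, 231, 162 and 251 after injury, 106, 229.8 and 85.8 after stimulation alone and 99.3, 87 and 95 after both. Controls and the libraries of both exposures overlapped, as did stimulation and injury alone, where 1 stimulated library reached the injured ones. The interaction was -2.22 ± 0.42 (adjusted p = 0.004), and -2.06 with an adjusted p of 0.061 without the second library of stimulated injured mice.

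Genes of the coverings divided in a similar way. Of 9 fibroblast and meningeal markers 2 had positive and 2 negative interactions (median -0.69), against 7.97% and 12.4% of all named genes. Without the GC trend the counts were 0 and 2. Slc6a13, a GABA and taurine transporter of the meninges, had 35.8, 41.7 and 32.6 CPM in controls, 125, 124 and 115 after injury, 29.5, 40.8 and 30.1 after stimulation alone and 35.2, 46.2 and 34 after both. Injury alone stood apart and the other 3 groups overlapped. Its interaction was -1.52 ± 0.24 (adjusted p = 0.0014), and -1.10 (adjusted p = 0.013) without the GC trend. Ptgds, the prostaglandin D synthase made by meninges and oligodendrocytes, had 5103, 5053 and 5522 CPM in controls, 22254, 21521 and 22182 after injury, 2563, 7112 and 2685 after stimulation alone and 6641, 6664 and 5058 after both. Injury alone was again apart, and the second library of stimulation alone was the highest of the remaining 9. Its interaction of -1.50 ± 0.42 (adjusted p = 0.021) was lost when any of 5 libraries was left out, with a highest adjusted p of 0.108. It was -0.73 without the second library of stimulated uninjured mice and -0.85 (adjusted p = 0.21) without the GC trend.

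Dcn, the matrix proteoglycan decorin, had 2659, 3557 and 2641 CPM in controls, 2945, 3175 and 3553 after injury, 873, 802 and 927 after stimulation alone and 1854, 1722 and 1944 after both. Stimulation alone was lowest and both exposures next, below all controls and all injured libraries. The interaction was 0.96 ± 0.23 (adjusted p = 0.011), and 0.52 (adjusted p = 0.22) without the GC trend. Postn, the matrix protein periostin, had an interaction of 2.04 ± 0.46 (adjusted p = 0.0079), and 1.51 (adjusted p = 0.052) without the GC trend. Summed fibroblast and meningeal levels were 9257 to 10103 CPM in controls, 27485 to 27848 after injury, 4723 to 9223 after stimulation alone and 8354 to 10083 after both, and most of this sum was Ptgds.

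Of 6 endothelial markers 2 had negative and 0 positive interactions (median -1.18), against 12.4% and 7.97% of all named genes. Without the GC trend the counts were again 2 and 0 (median -0.99). Eng, endoglin, a co-receptor for transforming growth factor beta, had 3.77, 6.37 and 4.8 CPM in controls, 7.43, 13 and 11.2 after injury, 16, 13 and 15.8 after stimulation alone and 7.99, 8.04 and 8.51 after both. Controls were lowest in every library, stimulation alone reached the highest levels, and the libraries of both exposures lay within the range of injury alone. Its interaction was -1.95 ± 0.37 (adjusted p = 0.0035), and -1.50 (adjusted p = 0.026) without the GC trend. Tie1, a receptor tyrosine kinase of vessels, had one of -1.66 ± 0.30 (adjusted p = 0.0027), and Vwf, von Willebrand factor, -1.27 ± 0.47 (adjusted p = 0.066), which did not pass.

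Antigen presentation genes were negative in 5 of 10 and positive in 0 (median -0.77), against 12.4% and 7.97% of all named genes. Without the GC trend there was 1 negative call, in a fit that called 265 of all 4769 named genes. Tap2, a subunit of the peptide pump of class I presentation, had 20.5, 17.1 and 12.8 CPM in controls, 50.4, 47.2 and 32.8 after injury, 49.4, 42.6 and 39 after stimulation alone and 53.6, 28.8 and 44.4 after both. All 3 exposed groups overlapped and lay above all controls. Its interaction was -1.42 ± 0.32 (adjusted p = 0.0082), and -0.997 (adjusted p = 0.082) without the GC trend. H2-Eb1, a class II chain, had 26.8, 35.9 and 28.8 CPM in controls, 62.1, 54.1 and 45.3 after injury, 63, 56.1 and 54.3 after stimulation alone and 45.5, 30.2 and 42.6 after both. Libraries of injury alone and stimulation alone overlapped, and those of both exposures were, except for the first, below them. The interaction was -1.37 ± 0.25 (adjusted p = 0.0031), and -1.10 (adjusted p = 0.031) without the GC trend, the 1 that passed. Psmb8 and H2-DMa, of the immunoproteasome and of class II loading, had interactions of -1.31 ± 0.37 (adjusted p = 0.021) and -0.92 ± 0.25 (adjusted p = 0.019), and the calls held in 6 and 7 of the 12 fits with 1 library left out. Without the GC trend they were -1.28 (adjusted p = 0.059) and -0.47 (adjusted p = 0.27).

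Of 7 macrophage markers 2 had positive and 1 a negative interaction (median 0.18), against 7.97% and 12.4% of all named genes. Without the GC trend 0 were called. DESeq2 called 0 positive and 1 negative, and gave no adjusted p for Mrc1 and F13a1. Mrc1, the mannose receptor of tissue-resident macrophages, had 2.33, 4.21 and 3.75 CPM in controls, 2, 0.531 and 1.25 after injury, 1.16, 0.772 and 0.716 after stimulation alone and 2.41, 2.89 and 1.18 after both. Levels were near the limit of counting, controls were above all libraries of stimulation alone, and the interaction was 2.73 ± 0.76 (adjusted p = 0.021), and 2.23 (adjusted p = 0.083) without the GC trend. F13a1, coagulation factor XIII subunit A, also of resident macrophages, had one of 2.59 ± 0.87 (adjusted p = 0.047), called in 3 of the 12 fits with 1 library left out, and 2.36 (adjusted p = 0.1) without the GC trend. C1qc, a chain of complement C1q, had 21.9, 21.2 and 20.4 CPM in controls, 46.4, 44.8 and 52.8 after injury, 22.2, 27.2 and 19.2 after stimulation alone and 30.2, 20.6 and 25 after both. Injury alone was apart from the other groups, and the interaction was -1.03 ± 0.25 (adjusted p = 0.011), and -0.52 (adjusted p = 0.21) without the GC trend. Summed macrophage levels were 121 to 140 CPM in controls, 189 to 224 after injury, 74.9 to 98.5 after stimulation alone and 99.2 to 115 after both.

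**Figure D4:**
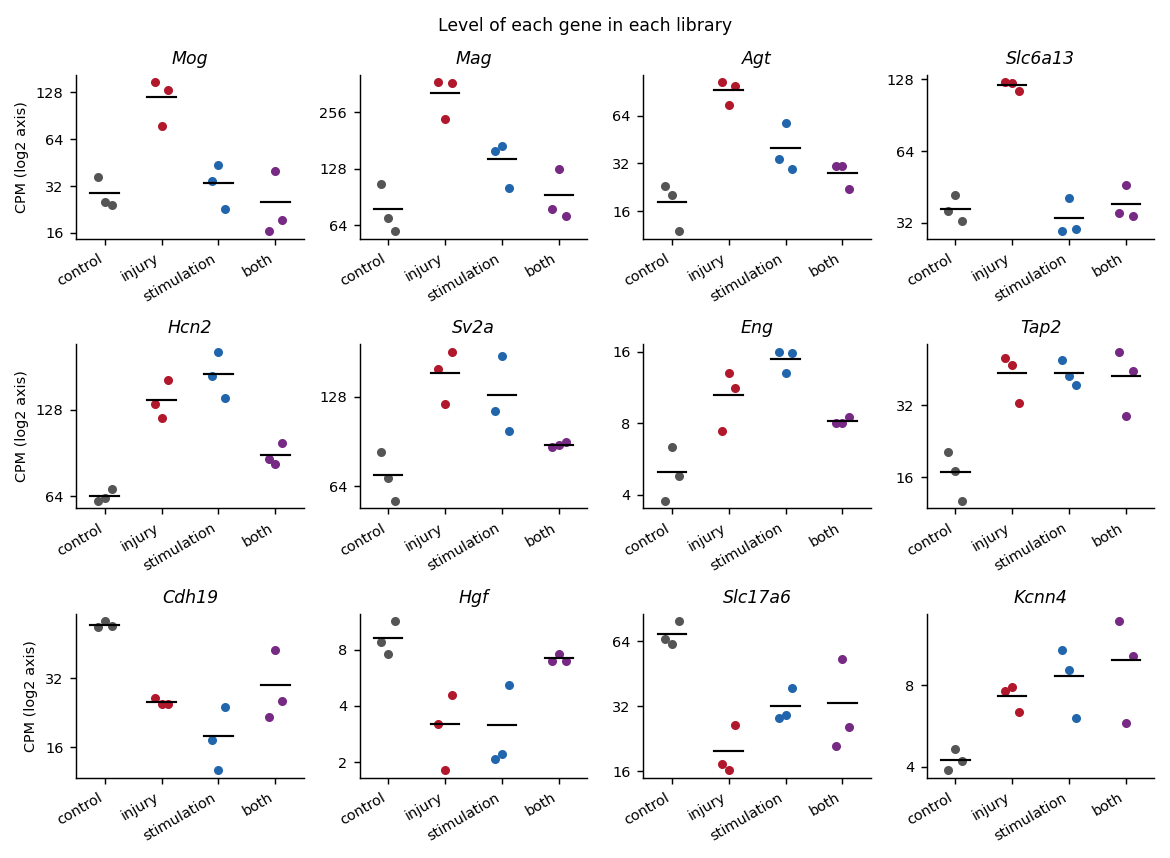
CPM on a log2 axis for 12 genes, with 1 point per library in the order of replicate numbers and a bar at the group mean. Mog, Mag, Agt and Slc6a13 were highest in the 3 libraries of injury alone, Hcn2 and Sv2a in those of injury or stimulation alone, Eng in those of stimulation alone, and Cdh19 and Slc17a6 in controls.

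The ion channel genes were measured in part. Kcnn3 and Kcnn4 were the 2 of the 4 KCNN genes with a name by position that passed the filter, and the interaction passed for neither. Kcnn4, the intermediate-conductance channel, had 3.88, 4.66 and 4.22 CPM in controls, 7.65, 7.86 and 6.39 after injury, 10.8, 9.15 and 6.05 after stimulation alone and 13.8, 5.79 and 10.3 after both. Controls were lowest and the 3 exposed groups overlapped. Its interaction was -0.58 ± 0.45 (adjusted p = 0.4), and -0.13 (adjusted p = 0.89) without the GC trend. Kcnn3, a small-conductance channel, had 1.66, 2.39 and 0.351 CPM in controls, 1.55, 0 and 0.694 after injury, 0.464, 1.1 and 0.796 after stimulation alone and 0.254, 0.858 and 1.42 after both, with 1 injured library at 0, and an interaction of 1.07 ± 1.33 (adjusted p = 0.62). These standard errors leave a wide range of interactions possible at this depth.

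Of 22 other potassium and HCN channel genes 3 had negative and 0 positive interactions (median -0.62), a negative share near the 12.4% of all named genes, and 2 without the GC trend. Hcn2 encodes a hyperpolarization-activated pacemaker channel known for its part in the firing of nociceptors. Its level was 61.6, 63 and 68 CPM in controls, 134, 119 and 163 after injury, 168, 204 and 140.3 after stimulation alone and 86.6, 83.2 and 98.3 after both. Controls were lowest, both exposures came next without overlap, and the libraries of the single exposures were all higher. The interaction was -2.04 ± 0.22 (adjusted p = 0.00083), -1.69 (adjusted p = 0.0029) without the GC trend, and called in all 12 fits with 1 library left out. The level after both exposures was 0.243 times the product of the separate fold changes. Kcnj10, given above, was another of the 3. Kcnab2, an auxiliary subunit of voltage-gated potassium channels, had an interaction of -0.88 ± 0.28 (adjusted p = 0.037), called in 4 of those 12 fits. It was -0.56 without the second library of stimulated injured mice and -0.32 (adjusted p = 0.52) without the GC trend.

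Synaptic vesicle genes were negative in 6 of 15 and positive in 1 (median -0.57), against 12.4% and 7.97% of all named genes. Without the GC trend the counts were 2 and 1. Sv2a, a vesicle glycoprotein, had 83.5, 68.3 and 57.2 CPM in controls, 159, 121 and 182 after injury, 115, 175 and 98.2 after stimulation alone and 86.8, 88.4 and 90 after both. Controls and the libraries of both exposures lay below all libraries of injury alone and of stimulation alone, and controls below those of both exposures. Its interaction was -1.69 ± 0.29 (adjusted p = 0.002), and -1.57 (adjusted p = 0.0091) without the GC trend. Of the 3 vesicular glutamate transporter genes measured, 1 was called in each direction, and Slc17a8, named after its value was seen, had an interaction of -1.17 (adjusted p = 0.33), which did not pass. Slc17a7, VGLUT1, had 88.7, 78 and 80.9 CPM in controls, 95.3, 155 and 125 after injury, 241, 239.6 and 191 after stimulation alone and 167, 125 and 164 after both, and an interaction of -1.16 ± 0.25 (adjusted p = 0.0059), which was -0.65 (adjusted p = 0.13) without the GC trend. Slc17a6, VGLUT2, the main one of nociceptors, had 65.5, 62.3 and 79.3 CPM in controls, 17.3, 16.1 and 26.1 after injury, 28.2, 29.1 and 38.7 after stimulation alone and 21, 53.2 and 25.6 after both. Controls were highest in every library, and the injured libraries overlapped with 2 libraries of both exposures. Its interaction was 1.86 ± 0.39 (adjusted p = 0.0057), and 1.35 (adjusted p = 0.025) without the GC trend.

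Axon guidance and adhesion genes were the largest list with calls both ways. Of 30 measured 6 were positive and 7 negative (median -0.32), against 7.97% and 12.4% of all named genes. Without the GC trend 1 was positive and 4 were negative. Unc5b, a netrin receptor, had 13.7, 7.51 and 6.68 CPM in controls, 59.7, 28.3 and 59.7 after injury, 17.3, 33.9 and 13.8 after stimulation alone and 9.63, 17.6 and 9.81 after both. The interaction was -3.19 ± 0.54 (adjusted p = 0.002), and -2.71 (adjusted p = 0.0095) without the GC trend. Efnb3, ephrin B3, a midline guidance ligand also made by oligodendrocytes, had 87.2, 41 and 40.5 CPM in controls, 295, 146 and 281 after injury, 96.3, 131 and 78.2 after stimulation alone and 30.8, 92.8 and 39.3 after both. In both genes the first and the third injured libraries were the highest of all, and the interaction of Efnb3 was -3.00 ± 0.62 (adjusted p = 0.0089). Gpm6a, a neuronal membrane glycoprotein of growing processes, had 179, 172 and 153 CPM in controls, 110.2, 78.6 and 99.6 after injury, 41.5, 43.2 and 52.2 after stimulation alone and 62.1, 105 and 68.3 after both. Controls were highest and stimulation alone lowest, both without overlap. Its interaction was 1.59 ± 0.27 (adjusted p = 0.002), and 1.1 (adjusted p = 0.0092) without the GC trend. Nrxn2, a neurexin, and Sema7a, a semaphorin, had interactions of -1.21 ± 0.25 (adjusted p = 0.0052) and -1.04 ± 0.21 (adjusted p = 0.0047). Neither was called without the GC trend, at -0.82 (adjusted p = 0.085) and -0.44 (adjusted p = 0.24).

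Of 6 sensory neuron identity genes 1 was negative and 0 positive (median -0.60), close to the share of all named genes (12.4% negative, 7.97% positive). Of 9 nociceptor genes 0 were called (median -0.26). Nefm, the medium neurofilament of large myelinated neurons, had 727, 722 and 713 CPM in controls, 663, 971 and 878 after injury, 1808, 1647 and 1792 after stimulation alone and 949, 989 and 1300.1 after both. Stimulation alone stood above all other libraries, and the interaction was -0.91 ± 0.24 (adjusted p = 0.016), and -0.37 (adjusted p = 0.39) without the GC trend. Of the nociceptor genes, Tac1, the precursor of substance P, had an interaction of 0.59 ± 0.25 (adjusted p = 0.11) and Scn11a, a sodium channel of small neurons, -0.61 ± 0.29 (adjusted p = 0.15). Summed identity genes were 4560 to 5301 CPM in controls, 7032 to 8585 after injury, 8175 to 9963 after stimulation alone and 6071 to 11214 after both.

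Neurotrophic genes were negative in 3 of 8 and positive in 0 (median -0.39), against 12.4% and 7.97% of all named genes. Without the GC trend 0 were called and the median was 0.03. Vgf, a neuropeptide precursor induced by neurotrophins, had 49, 56.2 and 32.4 CPM in controls, 80.1, 99.1 and 75.3 after injury, 194, 134 and 138 after stimulation alone and 120.3, 55.2 and 101 after both. Stimulation alone was highest in every library, and the interaction was -1.64 ± 0.35 (adjusted p = 0.0064), and -1.20 (adjusted p = 0.066) without the GC trend. Ngfr, the low-affinity neurotrophin receptor, had 307, 354 and 258 CPM in controls, 442, 436 and 488 after injury, 824, 702 and 719 after stimulation alone and 569, 415 and 595 after both, also highest after stimulation alone, and an interaction of -1.08 ± 0.23 (adjusted p = 0.0062), and -0.48 (adjusted p = 0.22) without the GC trend. Cntfr, the receptor for ciliary neurotrophic factor, had one of -1.36 ± 0.31 (adjusted p = 0.0079), and -1.09 with an adjusted p of 0.054 without the second library of stimulated uninjured mice. It was -0.68 (adjusted p = 0.15) without the GC trend. Bdnf, brain-derived neurotrophic factor, had 0.82 ± 0.37 (adjusted p = 0.13), which did not pass.

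Axonal transport and cytoskeleton genes were negative in 3 of 16, not far from the 12.4% of all named genes, and positive in 0 (median -0.41), and in 2 and 0 without the GC trend. Map4, a microtubule-associated protein, had 615, 637 and 518 CPM in controls, 1155, 1175 and 1127 after injury, 993, 1036 and 949 after stimulation alone and 887, 722 and 828 after both. The order from controls through both exposures and stimulation alone to injury alone held without overlap. Its interaction was -1.25 ± 0.20 (adjusted p = 0.0017), and -0.78 (adjusted p = 0.03) without the GC trend. Map6, which stabilizes neuronal microtubules, had one of -1.10 ± 0.19 (adjusted p = 0.0021), and Dync1h1, the dynein heavy chain, -0.78 ± 0.22 (adjusted p = 0.021), called in 7 of the 12 fits with 1 library left out, and -0.47 (adjusted p = 0.2) without the GC trend.

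**Figure D5:**
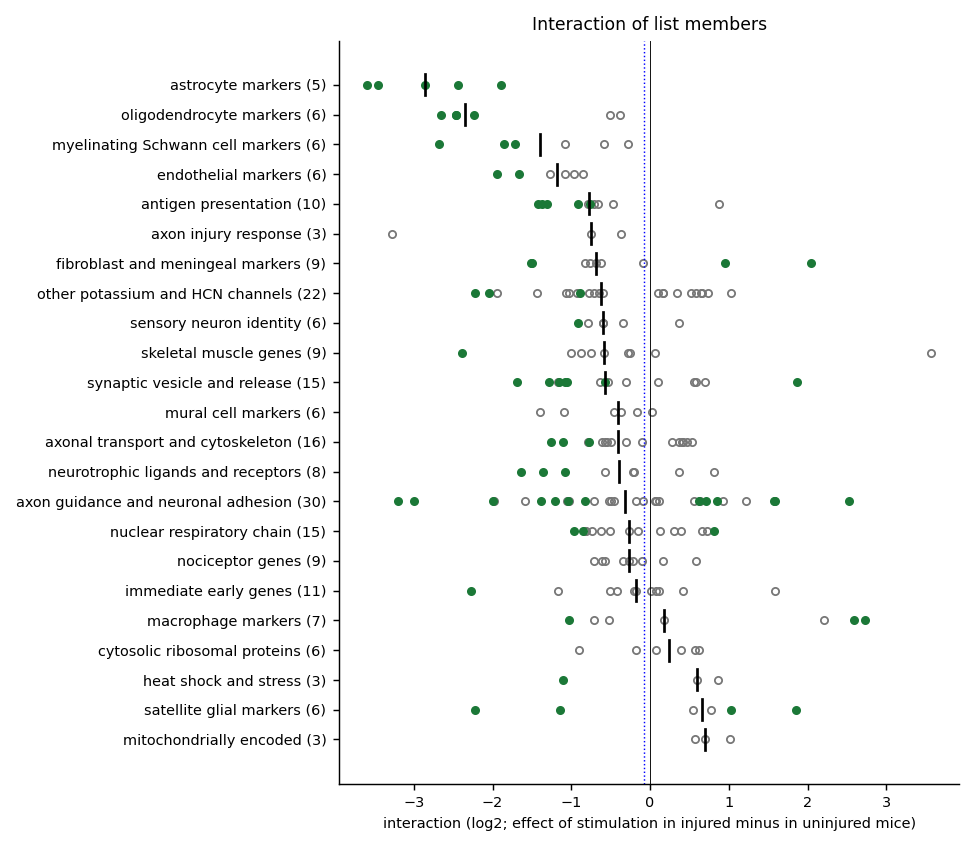
Interaction (log2) of each measured member of the 23 lists with at least 3 members measured, with the number in brackets. Filled points passed the test at an adjusted p under 0.05, open points did not, black bars are list medians and the dotted line is the median of all named genes (-0.07). Astrocyte and oligodendrocyte markers had the lowest medians, -2.85 and -2.35, in lists chosen with earlier results of these data known.

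Among the 12 genes with the highest interactions, Hgf, hepatocyte growth factor, a ligand of the receptor MET, had 8.76, 7.62 and 11.4 CPM in controls, 3.22, 1.81 and 4.58 after injury, 2.09, 2.21 and 5.17 after stimulation alone and 6.97, 7.61 and 6.97 after both. The libraries of both exposures lay above every library of the single exposures and, by a small margin, below every control. Its interaction was 2.70 ± 0.54 (adjusted p = 0.0045), 2.68 (adjusted p = 0.0089) without the GC trend, and called in all 12 fits with 1 library left out. The level after both exposures was 6.49 times the product of the separate fold changes. Mmp8, the neutrophil collagenase, had 2.44, 2.84 and 3.05 CPM in controls, 1.22, 4.46 and 0.694 after injury, 0.696, 0.221 and 0.239 after stimulation alone and 3.93, 2.79 and 3.07 after both. All libraries of stimulation alone were below all controls, and the interaction was 3.44 ± 0.87 (adjusted p = 0.014). Its size depends on levels near the limit of counting after stimulation alone, and the injured libraries ranged from 0.694 to 4.46 CPM.

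Among the 12 lowest, Cx3cl1, the neuronal chemokine fractalkine, had 17.1, 12.3 and 6.79 CPM in controls, 62.1, 46.5 and 44.7 after injury, 31.1, 77.1 and 19.2 after stimulation alone and 28, 22.5 and 17 after both, and an interaction of -2.99 ± 0.60 (adjusted p = 0.0059), which was -2.89 with an adjusted p of 0.064 without the second library of stimulated injured mice. Ramp1, a subunit of the receptor for calcitonin gene-related peptide, had 2.44, 1.82 and 2.93 CPM in controls, 7.65, 4.04 and 6.66 after injury, 2.44, 5.95 and 1.19 after stimulation alone and 1.27, 0.75 and 1.42 after both. The libraries of both exposures were below all controls, and the interaction was -2.81 ± 0.73 (adjusted p = 0.016), and -1.87 with an adjusted p of 0.087 without the second library of stimulated uninjured mice. Slc7a10, a transporter of small neutral amino acids in astrocytes, had 3.33, 1.82 and 1.29 CPM in controls, 9.1, 5.1 and 8.75 after injury, 2.2, 36.6 and 2.39 after stimulation alone and 0.634, 1.29 and 0.473 after both. The second library of stimulation alone exceeded every other library, the libraries of both exposures were at or below the lowest control, and the interaction was -5.87 ± 1.42 (adjusted p = 0.016). Without that library it was -3.20 (adjusted p = 0.012), and the call was lost without the first (adjusted p = 0.060) or the second (adjusted p = 0.083) library of both exposures.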

How the data were processed

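Per the file headers, the authors deposited whole-number counts for 56941 gene identifiers in each of 12 libraries, made with featureCounts 2.0.6 (paired input, unstranded, reads allowed in several genes) on Ensembl 110 models for GRCm39. FastQC, Salmon 1.10.2 and DESeq2 are the tools in the submitters' processing notes. For the aligner and its build, no name is given in the sources used here. The counts had the pattern of reads placed on GRCm38, so names were given only to intervals that covered at least 100 bp of exons of 1 GENCODE M21 gene and of no other. Partial coverage means that levels of different genes are not compared, and unstranded counts include antisense reads.

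Intervals were filtered with filterByExpr and fitted with edgeR 4.0.16 (TMM, robust quasi-likelihood, R 4.3.3, 4 group means), and Benjamini-Hochberg adjustment ran over all 13053 intervals. The trend on GC content and length was fitted with mgcv 1.9.3. Alternatives used DESeq2 1.42.0, limma 3.58.1, other scalings and filters, a replicate block and each library left out. The fit was also run on counts simulated with a common dispersion and with neither a GC trend nor an outlying library. That run therefore does not test how the calls respond to these features of the data.

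Genes are named by rule: KCNN genes, the 12 highest and 12 lowest interactions among called genes of at least 1 CPM whose sign held with each library left out (no predicted genes, pseudogenes or genes of chromosome 18), and up to 4 members with the smallest p from each described list. Some genes under this rule are not reported here. The members and the 26 lists (698 genes, 217 tested) were chosen with earlier results of these data known. Deviations from group means correlated at -0.246 to 0.181 between samples of the same replicate number, against -0.364 to 0.413 for different numbers. With 3 libraries in each group this cannot exclude that samples were paired. Counting error alone was not computed. At these depths (7952798 to 10751547 counted reads) it matters most for genes of a few CPM or less. Slc6a11, for example, had 28, 5 and 6 counts in controls.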

Additional observations from a re-analysis of the deposited data

Results flagged for a closer look

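Genes are given here because the effect of stimulation differed between injured and uninjured mice by a test of the difference itself, the interaction term. It passed for 2507 of 13053 intervals. The interactions below 0 with the largest size, some of them described above, were those of Tmem215 (-9.13), Slc7a10 (-5.87), the interferon-inducible Ifi211 (-3.86), the vesicular zinc transporter gene Slc30a3 (-3.84), Slc6a11 (-3.59), Dao (-3.46), the synaptic organizer Cbln1 (-3.38), Unc5b (-3.19), Efnb3 (-3.00), Cx3cl1 (-2.99), Agt (-2.85) and Ramp1 (-2.81). Of these 12, all but Ifi211, Slc30a3 and Cbln1 were called without the GC trend and 5 in all 12 fits with 1 library left out.

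Tmem215 rested on few reads. The 3 control libraries had 2, 0 and 3 counts, the 3 injured ones 16, 14 and 19, those of stimulation alone 5, 77 and 2 and those of both exposures 0, 1 and 0, so the size of its interaction depends on the smallest counts and is no measured fold. For Tmem215, Cbln1, with 0.887, 0.455 and 1.17 CPM in controls, 2.99, 1.81 and 2.5 after injury, 2.32, 16.1 and 1.27 after stimulation alone and 0.761, 2.89 and 1.65 after both, and Slc7a10, the second library of stimulation alone exceeded the other 2 of its group several times over. Without it their interactions were -5.98, -1.41 and -3.20, with adjusted p of 0.047, 0.31 and 0.012. The Cbln1 call held in 2 of the 12 fits with 1 library left out and had a highest adjusted p of 0.31. Those of Ifi211, Slc30a3 and Slc7a10 held in 4, 6 and 10, with highest adjusted p of 0.167, 0.164 and 0.083.

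The interactions above 0 with the largest size were those of Ssbp3 (4.63), Mmp8 (3.44), Pgap2 (3.38), Usp40 (2.93), Mrc1 (2.73), Hgf (2.70), Muc6 (2.68), Tbc1d31 (2.61), F13a1 (2.59), the zinc finger genes Zfp595 (2.58) and Zfp677 (2.54) and Scai (2.54). Of these 12, 6 were called without the GC trend (all but Usp40, Mrc1, Tbc1d31, F13a1, Zfp595 and Zfp677) and 5 in all 12 fits with 1 library left out. Ssbp3, a partner of LIM-domain transcription complexes, had 1.66, 1.37 and 2.11 CPM in controls, 1.11, 0.212 and 0 after injury, 0.116, 0.331 and 0.239 after stimulation alone and 1.27, 1.72 and 1.89 after both. All libraries of both exposures were above all libraries of the single exposures and within the range of controls or just below it. Levels after the single exposures were near the limit of counting, so the size of the Ssbp3 interaction also depends on the smallest counts. Scai, a repressor of the MRTF and SRF pathway, had 25.7, 27.6 and 30 CPM in controls, 8.32, 6.9 and 9.16 after injury, 9.97, 6.06 and 15.8 after stimulation alone and 7.48, 30 and 16.9 after both, and its second library of both exposures was the highest outside controls. The calls of Usp40, Zfp595 and Pgap2 held in 4, 4 and 7 of the 12 fits, with highest adjusted p of 0.114, 0.086 and 0.060, and those of Zfp677 and Tbc1d31 were lost without the third control (adjusted p of 0.065 and 0.054).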

How the results depend on the processing

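The 2507 calls (896 positive, 1611 negative, 971 named) became 4411 (1768, 2643, 1690) with limma voom quality weights, 687 (354, 333, 265) after removal of the GC and length trend, and 401 (199, 202, 164) when the replicate block was added to that. Upper quartile scaling gave 1396 positive and 852 negative calls. With 1 library left out the ranges were 1126 to 3407 calls, 433 to 1318 positive, 493 to 2127 negative and 485 to 1307 named. The cause of these moves was not tested. DESeq2 (2943), relative log expression scaling (2252), upper quartile scaling (2248), no filter on low counts (2427), a filter of 1 CPM in 3 libraries (2505) and naming by at least 300 bp (719 named) stayed within 1.5 times.

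No pairing of libraries by replicate number was seen: 1 of 18 same-number pairs correlated above 0.1, and 3 of 12 libraries correlated best with their own number. The fit with the replicate block called 1915 intervals (682 positive, 1233 negative), 755 of them named. Of the 69 genes called among those the naming rule allows, 61 were called with the block, 38 without the GC trend and 41 in all 12 fits with 1 library left out. For each gene that rule allows, the sign of the interaction held in every alternative run that gave the gene an adjusted p. This was partly fixed by the choice of genes. For the 12 highest and 12 lowest the rule itself required the same sign with each library left out. List members were picked for the smallest p. DESeq2 gave no adjusted p, and so no call, for some of these genes. Among them were Tmem215, Slc7a10, Ifi211, Slc30a3, Zfp595, F13a1, Muc6 and Mrc1. At an unadjusted p under 0.05 there were 4357 intervals. Genes near 1 CPM are limited by depth.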

Other observations

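Of 15 nuclear genes of the respiratory chain 1 had a positive and 2 a negative interaction (median -0.27), near the 7.97% and 12.4% of all named genes. This split depended on the processing: it was 2 and 0 with relative log expression scaling, 3 and 0 with upper quartile scaling (median -0.05), 4 and 0 without the second library of stimulated injured mice and 0 and 1 without the GC trend. Of the 3 mitochondrially encoded genes measured 0 were called (median 0.70), and DESeq2 called 2 as positive. Without the GC trend 0 were called and their median was 0.28. Uqcrc2, a core subunit of complex III, had 204, 175 and 219 CPM in controls, 155, 164 and 182 after injury, 119, 117 and 92.7 after stimulation alone and 155, 160.2 and 166 after both. Stimulation alone was lowest without overlap, and the interaction was 0.81 ± 0.20 (adjusted p = 0.012), and 0.39 (adjusted p = 0.37) without the GC trend. Its partner subunit Uqcrc1 had one of -0.97 ± 0.30 (adjusted p = 0.035), of the opposite sign, called in 3 of the 12 fits with 1 library left out. It was -0.46 (adjusted p = 0.37) without the GC trend and -0.60 without the second library of stimulated injured mice. The mitochondrial mt-Cytb, cytochrome b, had 50941, 39531 and 51633 CPM in controls, 43144, 43946 and 49288 after injury, 21505, 25600.0 and 16076 after stimulation alone and 37493, 28068 and 32751 after both. Levels after both exposures lay between those of stimulation alone and those of controls, and the interaction of 0.70 ± 0.30 (adjusted p = 0.12) did not pass. It passed with DESeq2 (adjusted p = 0.016), upper quartile scaling (0.043), no filter on low counts (0.0051) and limma voom (0.0039), and without the second library of stimulated injured mice (0.021). That was the only 1 of the 12 fits with 1 library left out that called mt-Cytb. The interaction did not pass with the replicate block (adjusted p = 0.20), and was 0.28 (adjusted p = 0.66) without the GC trend.

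Immediate early genes are switched on by neurons and other cells within minutes of a stimulus. Among 11 measured 1 was negative and 0 positive, near the 12.4% and 7.97% of all named genes. The median of these 11, -0.18, became 0.04 with upper quartile scaling and 0.36 without the GC trend. Arc, an activity-regulated gene of neurons, had 7.54, 6.83 and 4.92 CPM in controls, 21.6, 14.9 and 20.7 after injury, 13, 23.9 and 9.47 after stimulation alone and 10, 6.54 and 11.7 after both. Its interaction was -2.28 ± 0.46 (adjusted p = 0.0045), and -1.60 (adjusted p = 0.04) without the GC trend. Dusp1, a phosphatase that ends kinase signals, had 11.9, 19.5 and 24 CPM in controls, 62.7, 66.6 and 44 after injury, 26.6, 22.7 and 18.8 after stimulation alone and 58.7, 46.5 and 44.7 after both. Both groups of injured mice were above both groups of uninjured mice, and the interaction of -0.51 ± 0.32 (adjusted p = 0.29) did not pass. Nr4a1, an orphan nuclear receptor, had one of 1.59 ± 0.60 (adjusted p = 0.071), which did not pass either.

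Skeletal muscle genes differed within and between groups. Their sum was 66 to 937 CPM in controls, highest in the third, and 346 to 707 after injury. It was 135 to 148 after stimulation alone and 75.3 to 158 after both, so every library of injury alone was above every stimulated library. Of 9 measured 1 was negative, near the 12.4% of all named genes. That was Pygm, the muscle glycogen phosphorylase, at -2.38 ± 0.71 (adjusted p = 0.036), called in 3 of the 12 fits with 1 library left out. It was -1.56 without the second library of stimulated uninjured mice and -1.79 (adjusted p = 0.15) without the GC trend. Mural cell markers (0 of 6), cytosolic ribosomal proteins (0 of 6), axon injury genes (0 of 3), erythrocyte genes (0 of 2) and lymphocyte and neutrophil markers (0 of 1) had 0 calls, and heat shock and stress genes 1 negative of 3.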
